A study of Mus musculus with 6 samples.

Results

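Genes that were near silent in normal B-cell precursors and already transcribed in premalignant Eμ-Myc precursors were picked out from 6 RNA-seq libraries of mouse bone marrow. The rule asked for an autosomal protein-coding gene with less than 1 CPM (a gene's reads scaled to a fixed total of reads assigned to genes, counts per 1000000) in both wild-type libraries and at least 5 CPM in both premalignant and both malignant libraries. Of 21377 autosomal protein-coding genes, 4 met it: Rassf6, Ryk, Tln2 and Cth. The differences from wild type chose these genes, so their levels against wild type are given as a description, without a test. The malignant libraries were tested against the premalignant libraries, a contrast on which the rule set no order. The floor of 5 CPM held for both of these stages, however, so a gene that fell far enough in malignant cells could not be a member.

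The cells were pre-B cells (B220 high, IgM low, IgD low) taken from C57BL/6 bone marrow by flow sorting. The labels give this gate for all stages, whereas the study's methods describe the sorted malignant cells as B220 positive and negative for IgM and IgD, so a difference in the sort cannot be told apart from the malignant stage. The 3 stages were compared with 2 libraries each. The study's results name individual animals as the biological replicates of the sorted cells, while its RNA-seq methods mention only 2 biological replicate experiments. The wild-type mice were 4 to 6 weeks old, the premalignant mice were heterozygous E{mu}Myc/+ animals of 4 to 6 weeks, and the malignant mice were E{mu}Myc/+ animals of 10 to 20 weeks with spontaneous lymphoma. Wild-type and premalignant animals were female and malignant animals were of both sexes, so the stage of disease, the age and the sex cannot be told apart between the malignant libraries and the rest. In this strain the immunoglobulin heavy chain enhancer Eμ drives Myc in B-lineage cells, a model of lymphoma with Myc at high level from early life.

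The 6 libraries held 30031100 to 53453055 counts, so that 1 CPM corresponded to 30.03 to 53.5 reads and 5 CPM to 150.2 to 267.3 reads. Replicate 1 was the deeper library at each stage, with 51065861 (wild type), 53453055 (premalignant) and 52996457 (malignant) counts. Replicate 2 held 31283803, 34543633 and 30031100 counts in the same order. Myc, the check of the genotype, was measured at 37.7 and 46.7 CPM in wild type, 1143 and 1110 CPM in the premalignant libraries and 1562 and 1466 CPM in the malignant libraries. Transcripts of 14 pre-B-cell genes summed to 10618 and 11391 CPM in wild type, 4830 and 4742 CPM in premalignant and 4080 and 4785 CPM in malignant libraries. Summed markers of each of 10 other cell kinds outside the B lineage, from T cells to stroma, were lower in both premalignant libraries than in both wild-type libraries. The T-cell sum then rose, from 78.9 and 68.6 CPM in premalignant to 194 and 199 CPM in malignant libraries. Of 13 T-cell markers tested as described below, 1 was called higher at this step, beside 3.73% of all genes, and 12 were not called. No other of the 10 sums was higher in both malignant than in both premalignant libraries. Germinal centre B-cell markers summed to 121 and 128 CPM in wild type, 165 and 198 CPM in premalignant and 167 and 187 CPM in malignant libraries. Most of these markers did not follow the sum. Of 8, 5 were lower and 1 higher in both premalignant libraries than in both wild-type libraries. The plasma-cell sum fell at each step, and the mature B-cell sums of the stages overlapped. Of the 8 mature B-cell markers, 6 were nevertheless lower and 0 higher in both premalignant libraries than in both wild-type libraries. The part of these shifts in any result was not tested. In such bulk samples a higher level may come from a larger share of cells with the transcript or from more of it per cell, and a lower level from fewer such cells or less RNA in each, and these cannot be told apart.

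The 4 genes belong to unrelated pathways. Rassf6 encodes a member of the RAS-association domain family, whose SARAH-domain members bind the MST kinases of the Hippo pathway and have been studied as regulators of apoptosis. Ryk encodes an atypical receptor tyrosine kinase that binds WNT ligands through an extracellular WIF domain and has a kinase domain regarded as inactive. Tln2 encodes talin 2, which like talin 1 couples the cytoplasmic tails of integrins to actin. Cth encodes cystathionine gamma-lyase, the last enzyme of transsulfuration, which makes cysteine from cystathionine and can also release hydrogen sulfide.

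Promoter sequences of Rassf6 and Ryk were held in the RefSeq table (build GRCm38.p6) and are shown because a MYC-driven model raises the question of E-boxes, the short sequences to which MYC and MAX bind. The 250 bases before the annotated start are printed 5′ to 3′ on the strand of the gene, at chr5:90640528-90640777 (minus strand) for Rassf6 and chr9:102834670-102834919 (plus strand) for Ryk. Capitals mark matches on either strand to the noncanonical E-boxes CATGTG and CACGCG, which were picked for marking after the sequences had been seen.
Rassf6: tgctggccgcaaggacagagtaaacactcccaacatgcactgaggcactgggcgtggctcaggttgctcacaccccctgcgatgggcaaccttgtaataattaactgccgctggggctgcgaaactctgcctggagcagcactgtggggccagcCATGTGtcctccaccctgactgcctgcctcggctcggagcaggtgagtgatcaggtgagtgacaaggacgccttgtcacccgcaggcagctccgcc
Ryk: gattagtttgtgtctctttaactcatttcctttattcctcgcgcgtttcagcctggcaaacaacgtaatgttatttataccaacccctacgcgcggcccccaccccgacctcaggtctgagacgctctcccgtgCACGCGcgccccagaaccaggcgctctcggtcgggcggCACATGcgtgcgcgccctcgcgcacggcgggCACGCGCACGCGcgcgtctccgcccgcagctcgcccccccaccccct

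The canonical E-box CACGTG was in neither promoter, over the printed bases or with the first 50 transcribed bases added. Of 32851 promoters in the table, 7.15% held it over the 300 bases and 6.02% over the 250 bases. CATGTG occurred once in each promoter, as its reverse complement in Ryk, and in 12.3% of all promoters over 250 bases. CACGCG occurred 3 times in Ryk and not in Rassf6, against a share of 7.62% of all promoters with a match. The general E-box CANNTG, which takes in CACGTG and CATGTG, had 3 matches in Rassf6, 1 in Ryk and at least one match in 66.2% of promoters. The Ryk promoter was rich in CpG, with 33 CpG dinucleotides and a GC content of 65.2%, while Rassf6 had 10 CpG and 61.6% GC, against medians of 6 CpG and 52.4% over all promoters. These matches describe letters in a window and do not show that a factor was bound.

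The step from wild type to premalignant cells differed in size among the 4 genes. Rassf6 (chr5:91032102-91069513 in mm9, minus strand, 11 merged exons) had 0.313 and 0.224 CPM in the wild-type libraries, 10.4 and 11.1 CPM in the premalignant libraries and 61.0 and 37.3 CPM in the malignant libraries. Both malignant libraries were above both premalignant libraries, while the rule itself kept wild type below them. The wild-type values rested on 16 and 7 reads. Its mean CPM was 39.9 times the wild-type mean in premalignant cells and 183 times that mean in malignant cells.

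Ryk (chr9:102737250-102810637 in mm9, plus strand, 15 merged exons) had 0.568 and 0.959 CPM in wild type, 5.22 and 8.08 CPM in premalignant and 38.2 and 26.5 CPM in malignant libraries. It lay nearest to both thresholds, and both of its malignant values were above both premalignant values. Its mean was 8.71 times the wild-type mean in premalignant and 42.3 times that mean in malignant cells.

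Tln2 (chr9:67064894-67407510 in mm9, minus strand, 64 merged exons) had 0.568 and 0.767 CPM in wild type, 5.99 and 8.60 CPM in premalignant and 14.0 and 9.66 CPM in malignant libraries. The mean was 10.9 times the wild-type mean in premalignant and 17.7 times that mean in malignant cells. Both malignant libraries were above both premalignant libraries, though the higher premalignant and the lower malignant library lay close together.

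Cth (chr3:157557212-157588041 in mm9, minus strand, 13 merged exons) had 0.881 and 0.575 CPM in wild type, 5.59 and 8.02 CPM in premalignant and 10.1 and 12.2 CPM in malignant libraries. Its mean was 9.35 times the wild-type mean in premalignant and 15.3 times that mean in malignant cells. On the log2 scale, the premalignant mean had covered 81.9% of the distance from the wild-type to the malignant mean for Cth and 83.1% for Tln2. The share was 70.7% for Rassf6 and 57.8% for Ryk, so Ryk had the largest part of its difference between the premalignant and malignant stages.

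**Figure D1:**
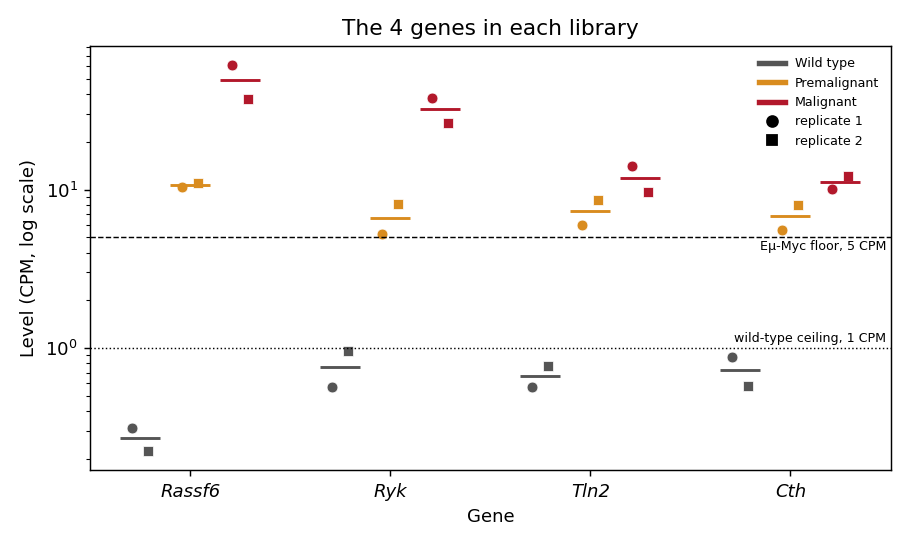
Level of each of the 4 genes (CPM, log scale) in each of the 6 libraries, coloured by stage, with circles for replicate 1, squares for replicate 2 and bars for the mean of 2. The dotted and dashed lines are the 1 CPM ceiling and the 5 CPM floor of the rule. Rassf6 and Ryk lie above 26 CPM in the malignant libraries, and Tln2 and Cth lie between 9.66 and 14.0 CPM.

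Per kilobase of merged exon (RPKM), which allows levels of different genes to be set side by side, Rassf6 was the highest of the 4 in the premalignant libraries at 5.29 and 5.65 RPKM. Cth followed at 2.47 and 3.54 RPKM and Ryk at 1.6 and 2.47 RPKM, where the higher Ryk value met the lower Cth value. Tln2, whose merged exons span 12511 bases, was lowest at 0.479 and 0.687 RPKM. In malignant libraries Rassf6 reached 31.2 and 19.1 RPKM, Ryk 11.7 and 8.11 RPKM, Cth 4.45 and 5.40 RPKM and Tln2 1.12 and 0.772 RPKM. The order of Ryk and Cth was thus exchanged in both malignant libraries.

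The wild-type ceiling was not equally secure for the 4 genes. Exact Poisson intervals at 95%, which cover counting error only, ran from 0.179 to 0.509 CPM and from 0.0900 to 0.461 CPM for Rassf6 in the wild-type libraries. The upper bound passed 1 CPM for Ryk in wild-type replicate 2 (1.37 CPM), for Tln2 in wild-type replicate 2 (1.14 CPM) and for Cth in wild-type replicate 1 (1.18 CPM). None of the 4 was without reads in wild type, and a count of 3 would have been 0.0587 and 0.0959 CPM in those libraries. Counting intervals were not computed at the floor of 5 CPM, where Ryk, Cth and Tln2 had 279, 299 and 320 reads in premalignant replicate 1.

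The thresholds left a short list that changes when they are moved. Just outside the ceiling lay Ccdc116 (up to 1.12 CPM in wild type and at least 8.12 CPM in the Eμ-Myc libraries), Fam195a (1.37 and 6.86 CPM) and Pycr1 (1.57 and 10.3 CPM). Just outside the floor lay Acer2 (0.416 CPM at most in wild type, 4.89 CPM at least in the Eμ-Myc libraries), 4933436C20Rik (0.196 and 4.28 CPM) and Fgf11 (0.666 and 4.08 CPM). Just inside, Ryk, Cth and Tln2 had 0.959, 0.881 and 0.767 CPM at most in wild type and 5.22, 5.59 and 5.99 CPM at least in the Eμ-Myc libraries. With library sizes scaled by the trimmed mean of M-values (TMM) the rule gave 7 genes, adding Acer2, Ccdc116 and 1700008F21Rik, and a ceiling of 0.5 CPM or a floor of 10 CPM gave 1 gene, Rassf6. With RPKM in place of CPM it gave 5 genes, of which Rassf6 was again the only one of the 4.

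Few genes met the floor at the premalignant stage. Of the 9784 genes below 1 CPM in both wild-type libraries, 29 reached 5 CPM in both malignant libraries but 5 did so in both premalignant libraries. The fifth gene was Crmp1, a neuronal collapsin response mediator, with 0.176 and 0.192 CPM in wild type, 6.04 and 8.83 CPM in premalignant and 6.19 and 1.03 CPM in malignant libraries. Malignant replicate 2 was below the floor for that gene. The other 25 genes met the floor in the malignant pair alone.

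**Figure D2:**
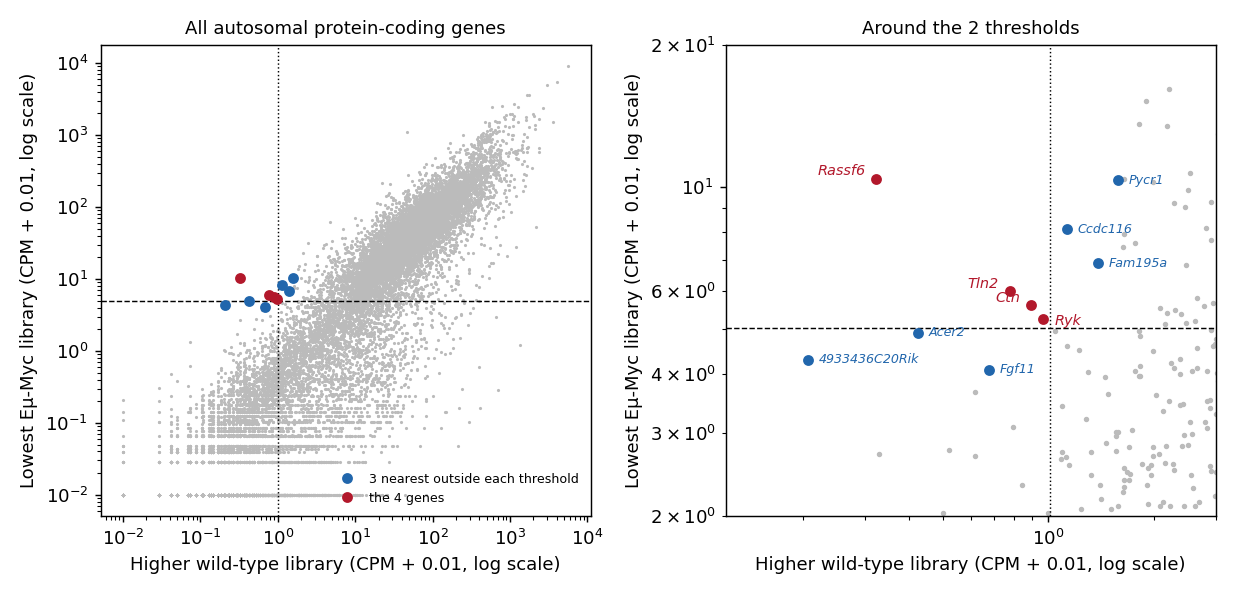
Higher wild-type level against lowest Eμ-Myc level (CPM + 0.01, both axes log scale), one point per autosomal protein-coding gene, over the whole range (left) and around the 1 CPM and 5 CPM thresholds (right). The 4 genes (red) are the only points in the upper left field. Rassf6 lies apart from both lines, and Ryk, Cth and Tln2 lie close to the corner.

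The malignant libraries were then tested against the premalignant libraries with the quasi-likelihood test of edgeR over 16683 genes, at a Benjamini-Hochberg adjusted p of 0.1 or less and a log2 fold change of at least 0.5. Rassf6 and Ryk rose further, so 2 of the 4 genes were called higher. The shares called higher were 3.73% of all genes tested and 4.54% of the 8322 genes with at least 5 CPM in the 4 Eμ-Myc libraries. With Ryk, Tln2 and Cth just above the floor in premalignant replicate 1, these shares are not like for like. The count is a description only. None of the 4 was called lower by edgeR or by DESeq2 or at an unadjusted p under 0.05 in edgeR, where 2.45% of all genes were called lower, but the floor of the rule left little room for a fall and nothing is read from this. Crmp1, with a log2 fold change of -0.93 (edgeR adjusted p = 0.567), was left out by that floor. Over all genes tested 623 were higher and 408 lower, a balance that depended on scaling, with 487 higher and 492 lower under upper-quartile normalisation.

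Rassf6 was higher in malignant cells by a log2 fold change of 2.29 ± 0.29 (SE, n = 2 per stage, edgeR adjusted p = 0.0242). The within-number ratios were 5.89 for replicates 1 and 3.38 for replicates 2. Ryk was higher by 2.37 ± 0.37 on the log2 scale (SE, edgeR adjusted p = 0.0365), with ratios of 7.31 and 3.28. Both calls were made by DESeq2 as well, with adjusted p-values of 2.28e-10 and 6.89e-08.

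Tln2 had a log2 fold change of 0.79 ± 0.35 (SE, edgeR adjusted p = 0.281) and Cth of 0.79 ± 0.34 (SE, edgeR adjusted p = 0.267), and neither passed the test. For Tln2 the malignant to premalignant ratio was 2.35 in replicates 1 and 1.12 in replicates 2. For Cth it was 1.8 and 1.52. With 2 libraries per stage an exact two-sided permutation test of a single gene cannot go below p = 0.333.

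These calls rested on few libraries. Without premalignant replicate 1 the edgeR adjusted p was 0.311 for Rassf6 and 0.360 for Ryk, and without premalignant replicate 2 it was 0.227 and 0.223, while the log2 fold changes stayed between 2.07 and 2.74. In those fits with a lone premalignant library, assumed to vary like the other groups, 0 genes of the whole table were called, with 1472 and 1777 at an unadjusted p under 0.05. Leaving out a wild-type library took Ryk just past the limit (adjusted p = 0.1001 without replicate 1 and 0.10001 without replicate 2). Tln2 passed it without malignant replicate 2, at a log2 fold change of 1.02 (adjusted p = 0.0673).

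For all 4 genes both malignant libraries were above both premalignant libraries in CPM, as in 22.9% of the genes with at least 5 CPM. Ryk, Tln2 and Cth lay just above the floor in premalignant replicate 1 and most of those other genes did not, so the shares are not like for like, and the order is a description only. The median log2 fold change over the 4 was 1.54, beside 0.04 over all genes tested and 0.06 over the genes with at least 5 CPM, with the same limit. The median of the log2 ratios was 1.89 within replicates 1 and 1.16 within replicates 2.

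**Figure D3:**
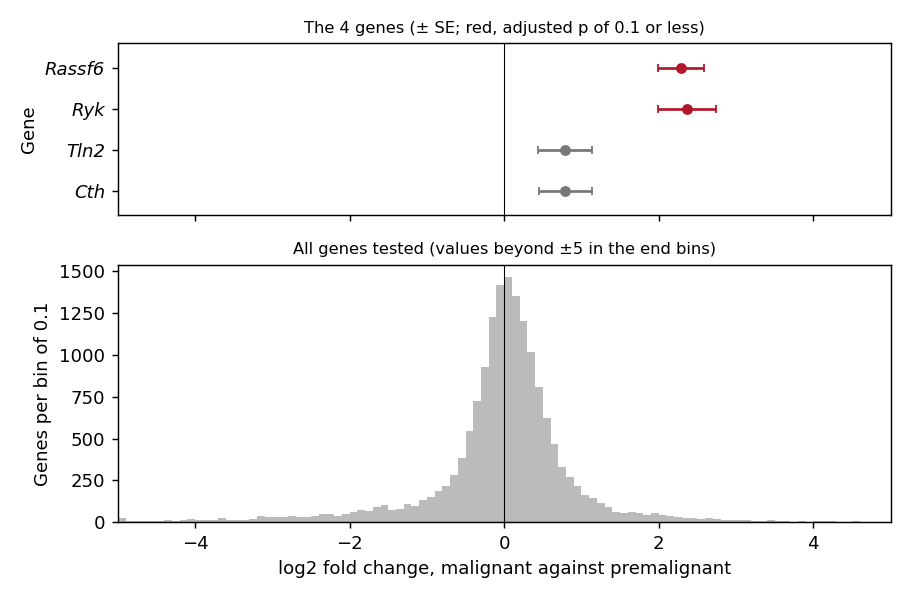
Upper panel, log2 fold change of each of the 4 genes between malignant and premalignant libraries (points) with its SE (bars), red where the edgeR adjusted p was 0.1 or less. Lower panel, number of genes per bin of 0.1 over all 16683 genes tested. Rassf6 and Ryk lie above 2 on this axis, and Tln2 and Cth lie at 0.79, inside the flank of the distribution.

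The replicates of the 4 genes were unequal in a shared direction in premalignant cells. Ryk, Tln2 and Cth were higher in premalignant replicate 2 than in replicate 1, by 0.63, 0.52 and 0.52 on the log2 scale, and Rassf6 by 0.09. The median absolute log2 ratio of replicates was 0.52 for the 4 genes, 0.08 for the genes with at least 5 CPM and 0.13 for 436 other genes within the premalignant mean CPM range of the 4. Of those 436 genes, 6.19% had a larger ratio than the median of the 4. In malignant cells Rassf6, Ryk and Tln2 were instead lower in replicate 2, by log2 ratios of -0.71, -0.53 and -0.54, and Cth was higher by 0.28. The median absolute ratio there was 0.53, beside 0.29 for the genes with at least 5 CPM and 0.30 for 3478 other genes within the malignant mean CPM range of the 4, of which 26.3% had a larger ratio than the median of the 4.

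Within the RASSF family, Rassf6 made up a larger share at each stage. This list, like the others here except that of the WNT pathway, was drawn up after the values of the 4 genes had been seen. Rassf6 made up 0.157% and 0.110% of the summed RPKM of Rassf1 to Rassf10 in wild type, 5.21% and 5.12% in premalignant and 20.0% and 13.2% in malignant libraries. By mean RPKM its rank was 8 of 10 at the wild-type stage, then 5, then 3. Of 7 other family genes tested by edgeR, 1 was higher and 1 lower at the premalignant step (premalignant against wild type), where 19% and 20.3% of all genes were called, and the median log2 fold change was 0.23 beside -0.08 over all genes. Rassf3, a family member linked to apoptosis, was higher in premalignant cells by 0.64 (edgeR adjusted p = 0.0596), a call lost without any 1 of the wild-type or premalignant libraries.

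Rassf4, another SARAH-domain member, was lowest in the premalignant libraries. It had 121 and 132 CPM in wild type, 54.6 and 57.7 CPM in premalignant and 133 and 185 CPM in malignant libraries. It fell by 0.96 on the log2 scale in premalignant cells (edgeR adjusted p = 0.0114) and rose by 1.59 from there to malignant cells (adjusted p = 0.0199). Between those stages the family median was 0.24 beside 0.04 over all genes, and 0 of 7 were called lower, beside 2.45% of all genes. Rassf4 was the only 1 of the 7 called higher there, beside 3.73% of all genes. That count was 0 without either premalignant library and 2 without either malignant library, and the fall was not called without premalignant replicate 1.

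Of 13 tested genes of the Hippo core, the kinase cascade that restrains YAP and TEAD, 3 were lower and 0 higher at the premalignant step, with a median log2 fold change of -0.28. The share lower was near the 20.3% of all genes called lower at this step. They were Stk3 (MST2, 63.8 and 52.9 CPM against 8.23 and 7.21 CPM, log2 fold change -2.71, edgeR adjusted p = 0.00823), Lats2 (-1.19, adjusted p = 0.0218) and Tead3 (-2.59, adjusted p = 0.0243). At an unadjusted p under 0.05 or by DESeq2 1 was higher, and the 3 lower became 1 without either premalignant library. Between malignant and premalignant cells 1 gene was higher, the scaffold Sav1 at 1.03 (adjusted p = 0.0365), where 3.73% of all genes were called higher, and the median was 0.20. That call was lost without either premalignant or either wild-type library, and the count was 2 and 3 without malignant replicates 1 and 2.

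Talin 2 stayed a small part of the talin pool. By RPKM it made up 0.0673% and 0.0807% of Tln1 and Tln2 together in wild type, 0.851% and 1.17% in premalignant and 2.31% and 1.57% in malignant libraries. Tln1, the talin of blood cells, had 661 and 745 CPM in wild type, 546 and 571 CPM in premalignant and 465 and 474 CPM in malignant libraries. Its log2 fold changes of -0.12 and -0.17 for these steps did not pass the edgeR test (adjusted p = 0.540 and 0.567).

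Of 18 other talin and integrin adaptor genes, 2 were higher and 6 lower at the premalignant step by edgeR. Of all genes, 19% were higher and 20.3% lower there. The median log2 fold change of the 18 was -0.13, beside -0.08 over all genes. The higher pair was Ptk2, which encodes focal adhesion kinase, and Parvg, the parvin of blood cells. Ptk2 had 3.09 and 3.20 CPM in wild type, 20.5 and 35.3 CPM in premalignant and 86.6 and 107 CPM in malignant libraries. It rose by 3.36 on the log2 scale in premalignant cells (adjusted p = 0.00209) and by a further 1.87 in malignant cells (adjusted p = 0.0328). The genes that fell were Pxn, Parva, Parvb, Lims1, Kank2 and Zyx. The log2 fold change was -3.0 for Zyx, a gene of focal adhesions, and -3.02 for Parvb.

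Between malignant and premalignant cells 4 of these 18 were higher and 0 lower, beside 3.73% and 2.45% of all genes. The median was 0.23, beside 0.04 over all genes. The 4 were Ptk2, Vcl at 1.73 (edgeR adjusted p = 0.0370), Parvb at 1.66 (adjusted p = 0.0904) and Parvg at 0.82 (adjusted p = 0.0740). Of these, Vcl encodes vinculin, a direct partner of talins. The 4 became 0 without any 1 of the wild-type or premalignant libraries or in a fit of the 2 Eμ-Myc stages alone. The 0 lower became 1 with DESeq2 and 2 at an unadjusted p under 0.05. The 6 that were lower in premalignant cells became 3, and the 2 higher became 1, without any 1 of those 4 libraries.

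Of 22 tested integrin subunits, the membrane partners of talins, 13 were lower and 0 higher in premalignant cells than in wild type by edgeR, with a median log2 fold change of -1.48. None was higher by DESeq2 or at an unadjusted p under 0.05. Of all genes, 20.3% were lower and 19% higher at this step, with a median of -0.08. Between malignant and premalignant cells 6 of the 22 were higher and 0 lower (1 by DESeq2, 2 at an unadjusted p under 0.05), with a median of 0.26. Of all genes, 3.73% were higher and 2.45% lower there, with a median of 0.04. In a fit of the 2 Eμ-Myc stages alone 3 integrin subunits were higher, and with no filter on low counts 4 were lower. The 13 became 6 and 7 without premalignant replicates 1 and 2 and 9 and 7 without wild-type replicates 1 and 2, and the 6 became 0 without either premalignant library and 3 without either wild-type library.

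Of 49 other WNT ligands, receptors and signalling genes listed beside Ryk, 24 were expressed enough to be tested. By edgeR 3 were higher and 7 lower at the premalignant step, beside 19% and 20.3% of all genes. The median log2 fold change of the 24 was -0.64, beside -0.08 over all genes. Among receptors, Lrp6 had 81.5 and 73.9 CPM in wild type, 82.7 and 84.1 CPM in premalignant and 70.3 and 96.1 CPM in malignant libraries and was not called at either step (adjusted p = 0.213 and 0.858). Its relative Lrp5 had 16.6 and 18.1 CPM, then 25.3 and 22.6 CPM, then 4.47 and 6.53 CPM. Lrp5 thus rose by 0.67 at the first step (adjusted p = 0.0741) and fell by 2.04 at the second (adjusted p = 0.0225).

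The frizzled receptor Fzd6 had 5.89 and 6.68 CPM in wild type, 2.71 and 4.6 CPM in premalignant and 0.0755 and 0.499 CPM in malignant libraries, with a log2 fold change of -3.69 at the second step (edgeR adjusted p = 0.0767). Znrf3, a ubiquitin ligase that removes frizzled receptors, rose by 1.8 in premalignant cells (adjusted p = 0.00278). The secreted frizzled-related protein gene Sfrp2 was the third gene that rose there, from 0.0587 and 0.0639 CPM to 0.767 and 0.695 CPM (edgeR adjusted p = 0.0173). Its ratio was 12.2 (95% counting interval 4.95 to 38.7), from 65 pooled reads in premalignant and 5 in wild-type libraries. Both premalignant libraries stayed under 1 CPM for Sfrp2. The 7 that fell were Wnt10a, Wnt10b, Dkk3, Rnf43, Tcf7, Tcf7l1 and Tcf7l2, which include 3 of the 4 TCF/LEF factors that act with beta-catenin, with Tcf7 lower by a log2 fold change of -2.95 (adjusted p = 0.00415).

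Between malignant and premalignant cells 3 WNT genes were lower (Lrp5, Fzd6 and Sfrp2) and 0 higher by edgeR (1 by DESeq2, 2 at an unadjusted p under 0.05). Of all genes, 2.45% were lower and 3.73% higher there. The median log2 fold change of the WNT genes was -0.31, beside 0.04 over all genes. The 3 became 0 without either premalignant library, 1 without either wild-type library and 6 without either malignant library, and the 0 higher became 4 without malignant replicate 2. At the premalignant step the 3 higher became 1 without any 1 wild-type or premalignant library, and the 7 lower became 2 and 1 without premalignant replicates 1 and 2 and 4 without wild-type replicate 2.

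Cth and its partner Cbs, which makes cystathionine, were both low in wild type. Cbs had 0.0392 and 0.0320 CPM in wild type, 0.711 and 0.463 CPM in premalignant and 2.45 and 0.366 CPM in malignant libraries. It was called higher in premalignant cells (edgeR adjusted p = 0.0382). With 54 pooled reads in premalignant and 3 in wild-type libraries, the ratio was 16.8 (95% counting interval 5.47 to 84.2), and both premalignant libraries stayed under 1 CPM.

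Of 19 other transsulfuration and methionine cycle genes tested, 7 were higher and 2 lower at the premalignant step by edgeR. Of all genes, 19% were higher and 20.3% lower there. The median log2 fold change of the 19 was 0.40, beside -0.08 over all genes. Besides Cbs, the genes called higher included Ahcy, which clears S-adenosylhomocysteine, at 1.85 (adjusted p = 0.00186) and Mat2a, which makes S-adenosylmethionine, at 1.39 (adjusted p = 0.0128). Mtrr and Mtr, which regenerate methionine, were higher by 1.32 (adjusted p = 0.00330) and 0.97 (adjusted p = 0.0125), and 10 of the 19 genes were not called. The glutathione synthetase gene Gss and the sulfurtransferase gene Mpst rose by 0.68 and 0.59. The cysteine dioxygenase gene Cdo1, which disposes of cysteine, and Slc7a11, which imports cystine, were lower with log2 fold changes of -1.34 and -0.96. The 7 became 4 and 3 without premalignant replicates 1 and 2 and 4 without wild-type replicate 2, and the 2 became 0 without any 1 wild-type or premalignant library.

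Between malignant and premalignant cells, where 3.73% of all genes were higher and 2.45% lower, 0 of the 19 were called by edgeR. None of the 19 was called by DESeq2 or at an unadjusted p under 0.05. Their median log2 fold change was 0.04, equal to that over all genes. Without malignant replicate 1 the fit called 3 higher and 1 lower, and without malignant replicate 2 it called 1 higher and 2 lower.

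Cth is also counted among genes that the amino acid response factor ATF4 is known to drive. Of 21 others tested, 11 were higher and 3 lower at the premalignant step by edgeR, beside 19% and 20.3% of all genes. The median log2 fold change of the 21 was 0.85, beside -0.08 over all genes. Largest were the proline enzyme gene Pycr1 at 3.32 (adjusted p = 0.00221), the neutral amino acid carrier gene Slc1a4 at 3.26 (adjusted p = 0.00296), the serine enzyme gene Shmt2 at 2.61 (adjusted p = 0.00141) and the asparagine synthetase gene Asns at 2.56 (adjusted p = 0.0107). The genes that were lower were Ddit3, Sesn2 and Slc7a11, of which the first is a stress-response factor and the second a sestrin. Atf4 itself, with 217 and 277 CPM in wild type and 229 and 221 CPM in premalignant cells, was not called (log2 fold change 0.07, adjusted p = 0.784).

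Of these 21 genes 5 were higher and 0 lower by edgeR between malignant and premalignant cells, beside 3.73% and 2.45% of all genes. None of the 21 was lower by DESeq2 or at an unadjusted p under 0.05. The median log2 fold change was 0.62, beside 0.04 over all genes. The 5 were Asns, Phgdh, Shmt2, Slc3a2 and Slc7a5. Asns had 1.92 and 5.40 CPM in wild type, 16.1 and 20.6 CPM in premalignant and 77.8 and 71.9 CPM in malignant libraries. The 5 became 0 without either premalignant library, 1 without either wild-type library and 11 without malignant replicate 2. The 3 lower at the premalignant step became 0 without either premalignant library or wild-type replicate 2, and 2 without wild-type replicate 1.

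**Figure D4:**
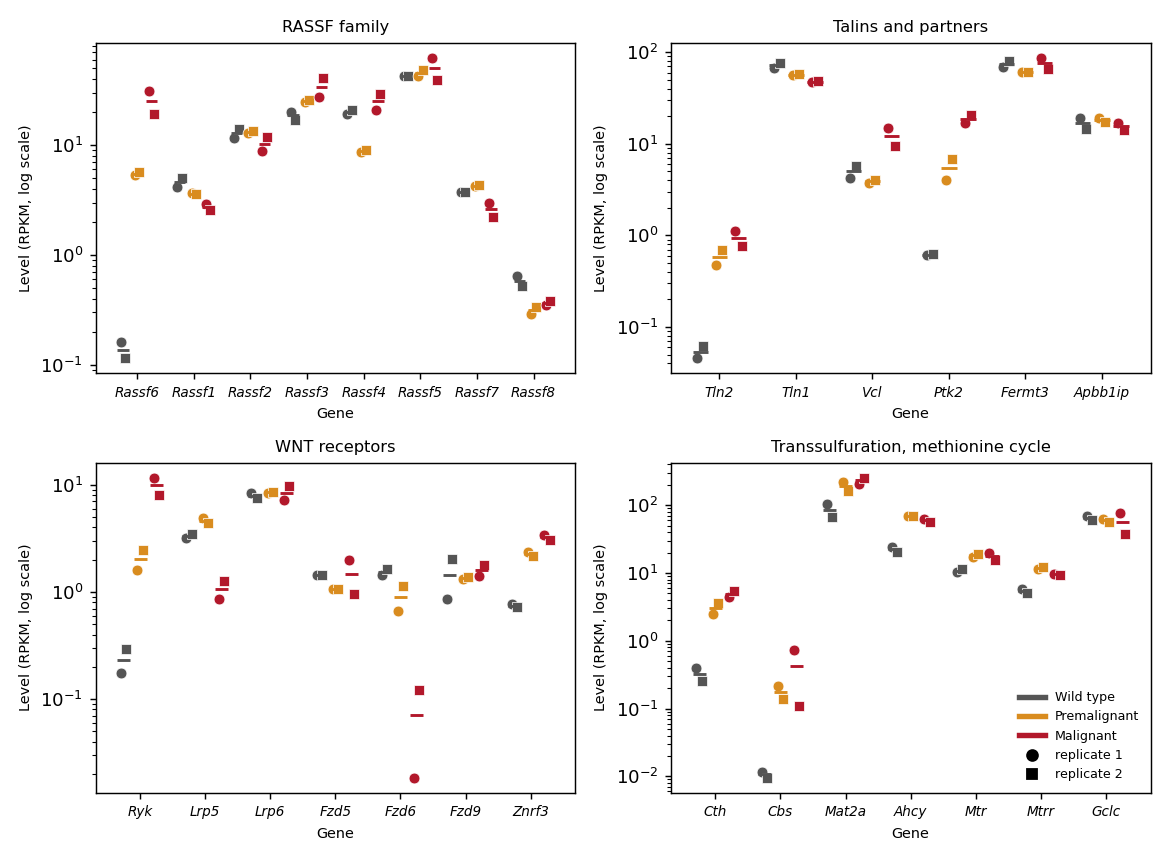
Level per exon length (RPKM, log scale) of the 4 genes and of relatives or partners in each library, coloured by stage, with circles for replicate 1, squares for replicate 2 and bars for the mean of 2. Rassf6 joins the range of its relatives, Tln2 stays far below Tln1, Ryk rises while Lrp5 and Fzd6 are lowest in malignant libraries, and Cth and Cbs lie below the methionine cycle genes.

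The 4 genes did not share a locus. No pair lay within 100 kb, and no other annotated gene overlapped them except Mir190 in Tln2, with 1 read over the 6 libraries. Around Rassf6, 14 protein-coding genes lay within 300 kb, among them albumin genes and a chemokine cluster, and 9 of these were below 1 CPM in all 6 libraries. Few neighbours were tested, and their counts are to be read beside the 19% of all genes called higher and 20.3% called lower at the premalignant step. Of the 4 tested around Rassf6, Ankrd17 was higher in premalignant than in wild-type cells (log2 fold change 0.57, edgeR adjusted p = 0.0336). Around Cth 1 of 3 tested neighbours was higher (Lrrc40, 0.74, adjusted p = 0.0196). Around Tln2 1 of 5 was higher (Rps27l, 1.45, edgeR adjusted p = 0.00510) and 1 lower (Tpm1, -0.63, adjusted p = 0.0306). Around Ryk 0 of 6 were higher by edgeR, by DESeq2 or at an unadjusted p under 0.05. There 3 were lower by edgeR and 2 by DESeq2, and the 3 included Rab6b at -4.04 (edgeR adjusted p = 0.0188).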

How the data were processed

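RNA was poly(A)-selected, prepared with the TruSeq RNA kit and sequenced as single 50-base reads on a HiSeq2500. According to the study's methods the reads were aligned with TopHat v2.0.8b and counted with HTSeq, and the labels name CASAVA 1.8.2, Bowtie and mm9; the HTSeq options, strand setting included, are not given in the sources used here. The deposited values used were the authors' raw counts per gene for each of the 6 libraries. The tables of the authors' own comparisons (fold changes and p-values by DESeq) were not used.

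CPM was the count over the total of all gene identifiers, and RPKM divided it by merged exon length (GENCODE vM1, mm9). Of 37991 identifiers 37205 had a symbol. The members and all lists were chosen with earlier results of these data known; the RASSF, Hippo, talin, integrin, transsulfuration and amino acid lists were drawn up after the members' values were seen. Named members were all 4; other genes were named near the thresholds, as calls within a list, or by role after their values were seen.

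Counts of all 6 libraries were fitted together by stage in edgeR 4.0.16 (R 4.3.3) with TMM, filterByExpr and the quasi-likelihood test, leaving 16683 genes; p-values were adjusted by Benjamini-Hochberg over these genes, and calls used the study's thresholds of 0.1 and an absolute log2 fold change of 0.5. The script was tested on simulated data. Alternatives were DESeq2 1.42.0, upper-quartile scaling, other filters and thresholds, a replicate block and leaving out each library. Fold changes from edgeR are relative to TMM scaling and so differ from ratios of CPM. Counting intervals cover counting error only. Promoters came from RefSeq (GRCm38.p6), which matched 2 of the 4 genes; no coordinates were converted between builds.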

Additional observations from a re-analysis of the deposited data

How the results depend on the processing

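The count of the 4 genes called higher in malignant than in premalignant cells was 2 in edgeR, with DESeq2, both other filters, upper-quartile scaling, the stricter thresholds and the fit of the Eμ-Myc stages alone, and ranged from 0 to 3 when each library was left out. It was 3 (with Tln2) without malignant replicate 2, 0 without premalignant replicate 1 or 2 and 1 (Rassf6) without wild type replicate 1 or 2. The median log2 fold change over the 4 ranged from 1.31 to 1.8. Across 12 other fits the log2 fold change ran from 1.86 to 2.58 for Rassf6, 2.06 to 2.74 for Ryk, 0.47 to 1.09 for Tln2 and 0.54 to 1.09 for Cth, with adjusted p-values of 1.59e-13 to 0.311, 1.13e-10 to 0.360, 0.0673 to 0.833 and 0.163 to 0.829. The rule gave 7 genes with TMM effective library sizes, 1 with a ceiling of 0.5 CPM and 1 with a floor of 10 CPM, and 4 to 7 when a library was left out (7 without wild type replicate 2). With RPKM it gave 5, of which 1 was among the 4.

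Replicate numbers are shared between stages but name different animals, and replicate 1 was the deeper library at each stage. The correlations of deviations were 0.412 (wild type and premalignant), 0.0569 (wild type and malignant) and 0.128 (premalignant and malignant). With the number as a replicate block 2 of the 4 were still called higher and 0 lower, at a median of 1.53, with adjusted p-values of 0.0284 for Rassf6 and 0.0466 for Ryk.

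Over all genes, 623 higher and 408 lower calls between malignant and premalignant cells became 1142 and 971 with DESeq2, 1438 and 1372 without a filter, 194 and 64 with the Eμ-Myc stages alone, and 0 without either premalignant library. Of 602 counts of listed genes under alternatives, chosen after seeing the data, 457 were within 1.5 times of the count given. With 2 libraries per stage and 7 to 45 wild-type reads per gene, folds over wild type carry wide counting error.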
